A study of Mus musculus with 3 samples.

Results

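The SLAM family receptors are immunoglobulin-like proteins of the surface of blood cells, named after the signalling lymphocytic activation molecule. The genes described here, Slamf1, Slamf6, Slamf7, Slamf8, Slamf9, Ly9, Cd48 and Cd84, were chosen by name. They are 8 of 55536 genes in the gene table, of which 21951 are annotated as protein-coding. The measurements are RNA-seq of polyadenylated RNA from primary mouse cells that the labels call activated regulatory T cells, the CD4 T cells that hold immune reactions in check. The cells came from an adult male of 9 weeks, and the strain name joins 3 alleles, Foxp3GFP-DTR, CD4CreERT2 and R26tdTomato. The first name stands for a green fluorescent protein and diphtheria toxin receptor at Foxp3, the second for a drug-inducible Cre recombinase under Cd4 control, and the third for a red reporter at the Rosa26 locus. Whether a drug or toxin was given, how the cells were activated and how they were sorted are not stated in the sources used. There was 1 group of 3 libraries, numbered technical replicates 1, 2 and 3 of 1 biological replicate, and no resting or other cells for comparison. Every SD and p-value below therefore measures only the spread between libraries of 1 biosample.

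Most SLAM receptors bind the same receptor on a neighbouring cell. CD48 differs in being held in the membrane by a lipid anchor, and it is the ligand of CD244 and of CD2. The signalling members carry tyrosine switch motifs in the cytoplasmic tail. In most of them, though not all, these motifs can recruit the small adaptor SAP (gene Sh2d1a) and through it the kinase Fyn. Where SAP is lacking, the same motifs can recruit inhibitory phosphatases. In T cells these receptors are known for their part in the contact between T and B cells and in the development of innate-like T cells.

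The libraries held 20783676 (replicate 1), 21206219 (replicate 2) and 18496690 (replicate 3) estimated counts in genes. All 5 regulatory T cell markers, Foxp3 among them, and all 5 T cell markers were detected, which means 1 TPM or more in every library, TPM being each transcript's share of all transcripts after division by length. The regulatory T cell markers summed to between 1754 and 1959 TPM and the T cell markers to between 6996 and 7959 TPM. The defining genes of the labelled cell type were thus present.

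The members lie together on chromosome 1 of mm10. Ly9 (ENSMUSG00000004707.14, chr1:171588624-171607410, minus strand), Slamf7 (ENSMUSG00000038179.13, chr1:171632403-171653035, minus), Cd48 (ENSMUSG00000015355.13, chr1:171682009-171705258, plus), Slamf1 (ENSMUSG00000015316.11, chr1:171767127-171801184, plus), Cd84 (ENSMUSG00000038147.13, chr1:171839697-171890718, plus) and Slamf6 (ENSMUSG00000015314.10, chr1:171917515-171953170, plus) follow each other within 365 kb. Slamf9 (ENSMUSG00000026548.4, chr1:172475358-172478575, plus) begins 522 kb beyond Slamf6. Slamf8 (ENSMUSG00000053318.7, chr1:172581758-172590568, minus) is the last. The 6 members of the first stretch were the 6 that were detected, and both distant members were below detection. Gm10521, a gene between Cd84 and Slamf6 that is not a member, was at 0.45, 0.49 and 0.67 TPM. The interval holds 27 protein-coding genes. Of the 19 that are not members 10 were detected, against 47.4% of all protein-coding genes. Whether position bears on detection was not tested.

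**Figure D1:**
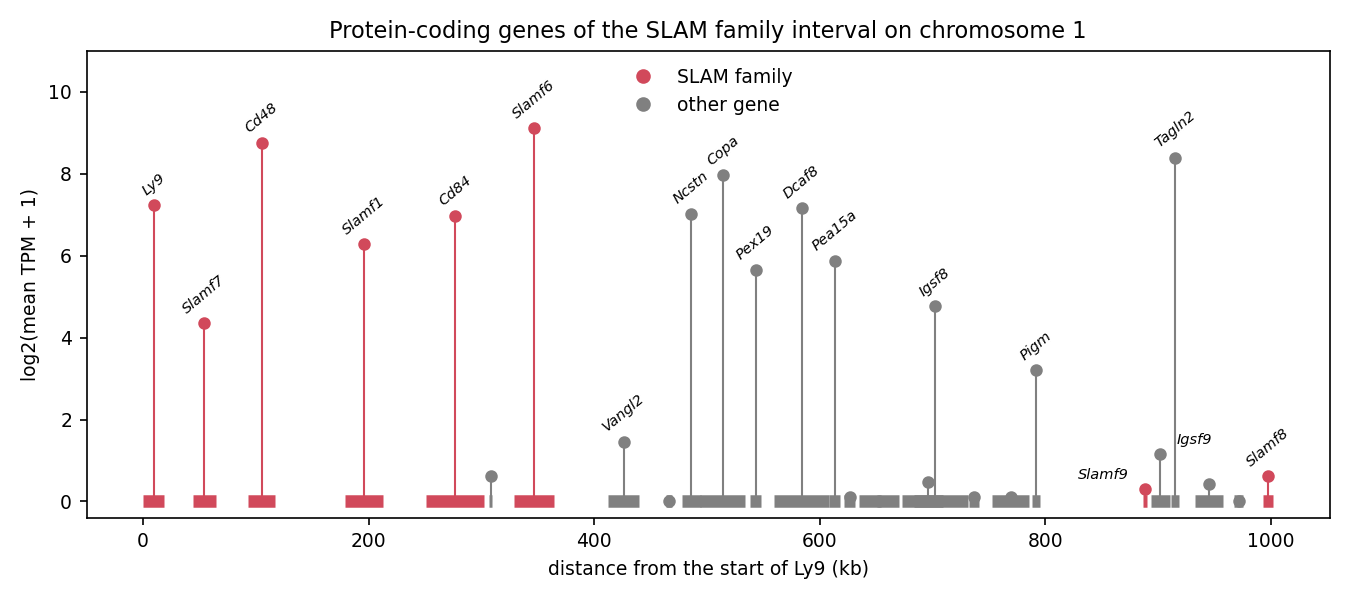
Mean level of each protein-coding gene of the interval, as log2(mean TPM + 1) over 3 libraries, against distance from the start of Ly9 in kb; thick marks on the baseline are the gene bodies. The 6 detected SLAM family genes stand within the first 365 kb, and Slamf9 and Slamf8 lie low at the other end.

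The members differ in how many tyrosine switch motifs they code for, so the coding sequence of the matches near the end of the protein is shown. The motif searched was threonine, any residue, tyrosine, any pair of residues, then valine or isoleucine, in the translated coding sequences of GENCODE M21 transcripts. The 18 bases run 5′ to 3′ on the coding strand, with the tyrosine codon in capitals.
Slamf1-201, exon 5 (chr1:171792339-171792356): actattTATgcccaagta
Slamf1-201, exon 7 (chr1:171799588-171799605): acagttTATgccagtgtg
Slamf6-201, exon 6 (chr1:171939437-171939454): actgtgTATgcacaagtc
Slamf6-201, exon 7 (chr1:171941664-171941681): acaattTACtccatagtt
Cd84-205, exon 6 (chr1:171884605-171884622): acagtaTATgctgtagtt
Cd84-205, exon 7 (chr1:171885601-171885618): accattTATtcctcagtg
Ly9-202, exon 8 (chr1:171593912-171593929): actccaTATgataaagtg
Ly9-202, exon 9 (chr1:171593438-171593455): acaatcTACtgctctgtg
Slamf7-203, exon 7 (chr1:171636327-171636344): acatttTATtccactgtg
Only matches within the last 100 codons were kept for this list, and Cd48 was left out. Each of these 9 lies inside 1 exon. The tyrosine codon was TAT in 7 and TAC in 2. All 9 end in a valine codon although the search also allowed isoleucine. Slamf1, Slamf6, Cd84 and Ly9 have 2 matches and Slamf7 has 1.

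Such a pair of matches is uncommon. Of 21866 genes, each taken by its longest coding transcript, 7.85% held 1 or more matches anywhere and 1.76% held 1 or more within the last 100 codons. Only 10 genes, or 0.0457%, held 2 or more within the last 100 codons. These 10 were Slamf1, Slamf6, Cd84, Ly9, the related receptor gene Cd244a, 4 actin genes (Acta1, Acta2, Actc1 and Actg2) and Asah2, which codes for a ceramidase. A match describes the sequence and does not show a working site. Cd48 and Slamf8 have a match in exon 2, over 100 codons from the end of their main transcripts, and Slamf9 has none. The Cd48 match comes within the last 100 codons only in the short transcript Cd48-201.

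Among the receptors with 2 motifs, Slamf6, which is also called Ly108, had the highest level. Its level was 571 TPM in replicate 1, 510.3 in replicate 2 and 567 in replicate 3. The mean, 549.5 ± 34.0 TPM (SD, n = 3), placed Slamf6 at rank 216 of the protein-coding genes. Replicate 2 was lowest, and the other 2 libraries lay close together. In bulk RNA, fewer cells of a type and less RNA per cell cannot be told apart, here as for every level below.

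Ly9, also called CD229, had 148, 147 and 153 TPM in replicates 1, 2 and 3 (149 ± 3.64 TPM). It varied least among the detected members relative to its mean. Cd84, a self-binding receptor, followed at 124, 114 and 137 TPM (125 ± 11.3 TPM), with replicate 3 highest. Slamf1, the receptor that gave the family its name, had 71.5, 83.6 and 74.2 TPM (76.4 ± 6.33 TPM), with replicate 2 highest.

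Slamf7, also called CRACC, has the single motif and is known from natural killer cells, plasma cells and activated lymphocytes. It was the lowest detected member, at 22.1 TPM in replicate 1, 14.0 in replicate 2 and 21.9 in replicate 3 (19.3 ± 4.61 TPM). The libraries fell into 2 close values and 1 lower one, that of replicate 2.

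Cd48, the lipid-anchored ligand with no signalling tail, was second to Slamf6 by TPM. Its level was 422, 454 and 414 TPM in replicates 1, 2 and 3 (430.1 ± 20.9 TPM). It made up 31.9 ± 2.13% of the summed TPM of the members, which ran from 1323 to 1368 TPM. Slamf6 and Cd48 together made up 72.6 ± 0.727% of that sum.

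Slamf8 and Slamf9, short-tailed members known from myeloid cells, were near the limit of detection. Slamf8 had 12, 11 and 10 estimated counts in replicates 1, 2 and 3, or 0.56, 0.50 and 0.53 TPM. In CPM, which are counts scaled to the size of the library, its 95% exact Poisson interval in replicate 1 was 0.298 to 1.01, and the values of replicates 2 and 3, 0.519 and 0.541 CPM, lie inside it. Slamf9 had 1, 3 and 7 counts, or 0.06, 0.17 and 0.47 TPM. Its intervals were 0.00122 to 0.268 CPM in replicate 1 and 0.152 to 0.780 CPM in replicate 3. A difference between libraries was not detectable at this depth (chi-square test over genes with 10 or more counts, adjusted p = 0.103). These intervals cover counting error only.

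In all, 6 of the 8 members were detected, against 47.4% of protein-coding genes. The median of the members' mean levels was 101 TPM, that of all protein-coding genes 0.830 TPM. The order by TPM was Slamf6, Cd48, Ly9, Cd84, Slamf1, Slamf7, Slamf8 and Slamf9 in each of the 3 libraries, and no 2 neighbours in this order overlapped. The narrowest gap was between Slamf8 and Slamf9, with a lowest value of 0.50 TPM against a highest of 0.47 TPM. In replicate 3 these genes had 10 and 7 counts, too few to order them. The next narrowest was between Ly9 and Cd84, at 147 against 137 TPM. The widest step among the members was from Slamf7 to Slamf8, a ratio of 28.0 to 41.3 over the libraries.

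**Figure D2:**
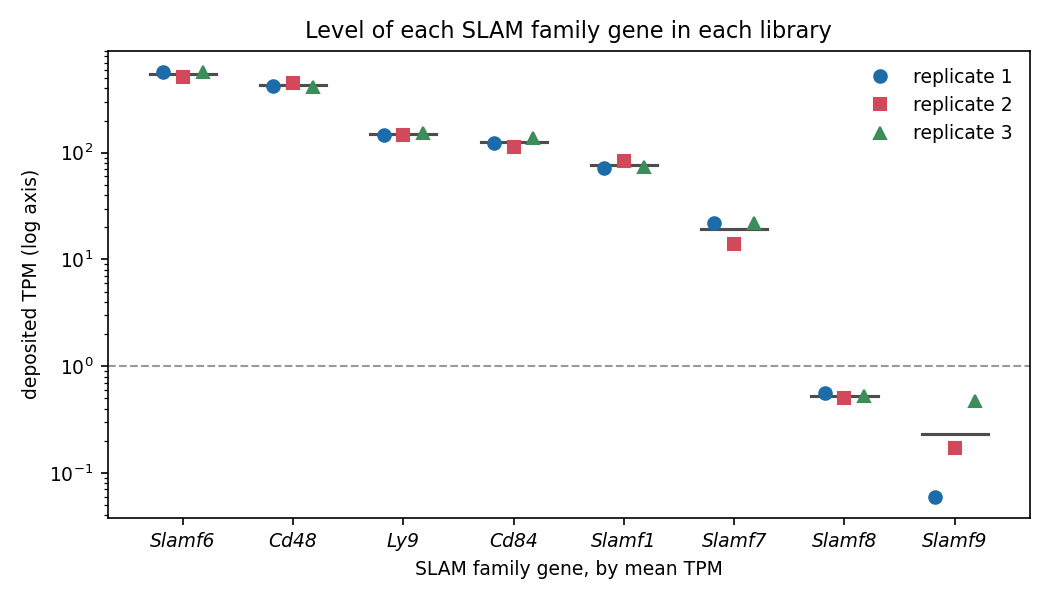
Deposited TPM of each SLAM family gene on a log axis, with 1 symbol per library and a bar at the mean of the 3; the dashed line marks 1 TPM. Slamf6 and Cd48 stand highest at 549.5 and 430.1 TPM, and Slamf8 and Slamf9 lie below the line in every library.

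The lead of Slamf6 over Cd48 depended on which transcripts the length was taken from. TPM divides each transcript's reads by its length, and short annotated transcripts held much of the Slamf6 level. That level also includes transcripts annotated with no coding sequence. Among them, Slamf6-206 was at 149, 135 and 125 TPM in replicates 1, 2 and 3, and Slamf6-205 at 34.0, 27.9 and 38.2 TPM. Counts of each gene in all 3 libraries were divided by the deposited effective length, in replicate 1, of its protein-coding transcript with the most estimated counts. Cd48 then stood at 276 ± 17.4 CPM per kilobase and Slamf6 at 182 ± 12.9. With the longest protein-coding transcript, Cd48 again led and Slamf6 fell behind Ly9, at 78.0 ± 5.53 against 93.8 ± 2.01. By their means, the genes from Cd84 down to Slamf9 had the same order on all 3 scales. In replicate 2, with the longest protein-coding transcript, Slamf1 stood slightly above Cd84, at 56.9 against 56.0 CPM per kilobase.

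A second deposited gene table, made with the older GENCODE M4 annotation, gave another order at the top by counts. Ly9 had 2296, 2361 and 2192 counts there in replicates 1, 2 and 3. Slamf6 had 2070, 1990 and 2031, and Cd48 had 1324, 1343 and 1280. The second table held 30.2% as many counts as the first over all genes, but 49.5% for Ly9, 48.6% for Slamf7, 22.8% for Slamf6 and 20.8% for Cd48. How reads were counted there is not stated, so the difference between the tables was not resolved. The first table also gives an interval of TPM around a posterior mean, at a level that is not stated. For 5 of the 6 detected members that interval lay wholly below the TPM value in all 3 libraries, Slamf7 being the exception. The posterior mean was 0.884 to 0.948 times the TPM over the 6 genes and 3 libraries.

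The second motif of Slamf6 is coded by an exon that its transcripts use differently. Exon 7 of Slamf6-201 (chr1:171941625-171941696, plus strand) is 72 bases long, and the 18 bases of the motif are in capitals.
Slamf6-201, exon 7: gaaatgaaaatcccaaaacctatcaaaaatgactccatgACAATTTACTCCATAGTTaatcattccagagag
Slamf6-207 has this exon too. Slamf6-204 skips it and joins exon 6 to a coding exon that is exon 8 of Slamf6-207, so that it keeps the first motif and lacks the second.

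Slamf6-204 held the largest share of the Slamf6 level. Its TPM was 251 in replicate 1, 237 in replicate 2 and 256 in replicate 3, or 43.9, 46.4 and 45.2% of the gene (45.2 ± 1.22%, n = 3). Slamf6-206, annotated as a processed transcript with no coding sequence, held 24.9 ± 2.47%, and Slamf6-201, with both motifs, 19.0 ± 2.23%. Slamf6-207 held 3.21 ± 0.395%. The shares of Slamf6-204 and Slamf6-201 did not overlap between libraries.

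By estimated counts the lead changed. Slamf6-201 then held 36.8 ± 3.51% and Slamf6-204 33.7 ± 1.5%, and Slamf6-204 was ahead in replicate 2 and behind in replicates 1 and 3. Slamf6-204 is annotated with 984 bases, no 5′ UTR and 3 bases of 3′ UTR, and Slamf6-206 with 444 bases, which lie in exons shared with Slamf6-201 and Slamf6-207. Slamf6-201 has 2485 bases and Slamf6-207 has 5729. Of the 3 transcripts that reach this stretch of the tail, those with exon 7 made up 33.9, 30.2 and 34.7% by TPM in replicates 1, 2 and 3, and 60.9, 58.2 and 62.1% by estimated counts. Transcripts with 2 motifs, 1 motif and none held 22.2 ± 2.00, 45.2 ± 1.22 and 32.6 ± 1.61% of the Slamf6 TPM. All 3 libraries gave like shares on each scale. Estimated counts are not divided by length, so their shares are of reads and not of messages. The TPM shares rest on the annotated lengths, so whether most Slamf6 messages code for 1 or 2 motifs remains uncertain. Reads across the splice junctions were not analysed here.

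Ly9 used 1 main transcript. Ly9-202, which has both motifs, held 81.1, 87.9 and 83.7% of the gene's TPM in replicates 1, 2 and 3 (84.2 ± 3.41%). Ly9-201 held 10.4 ± 2.70%. It lacks exon 2 of Ly9-202, an in-frame exon of 330 bases, and codes for 544 codons where Ly9-202 codes for 654. Transcripts with both motifs made up 94.8 ± 0.709% of the Ly9 TPM. Slamf1-201, again with both motifs, held 93.9 ± 0.359% of its gene, and the rest was a transcript with a retained intron, Slamf1-202.

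Cd84 was divided among 4 transcripts. Cd84-205 held 34.5, 37.1 and 35.4% (35.6 ± 1.33%), Cd84-201 23.3 ± 2.74% and Cd84-204 17.5 ± 3.16%, and all of these have both motifs. Cd84-203 held 21.9, 27.3 and 21.4% (23.5 ± 3.30%). It consists of 2 exons, the second, of 3295 bases, continuing past the splice site at which the matching exon of Cd84-205, of 333 bases, ends. It codes for 140 codons against 329 in Cd84-205, with no tail. Replicate 2 had the highest share of Cd84-203 and the lowest of Cd84-204 and Cd84-201. Together, transcripts with both motifs made up 76.5 ± 3.30% of the Cd84 TPM.

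The widest spread in transcript shares between libraries was in Slamf7. Slamf7-203 held 24.7, 32.7 and 29.8% (29.1 ± 4.04%) in replicates 1, 2 and 3. Slamf7-204 held 11.7, 37.1 and 20.1%, and Slamf7-202, which skips exon 6 of Slamf7-203 and has no motif match, held 16.6, 30.2 and 9.87%. Slamf7-201 was at 32.3% in replicate 1, listed at 0 in replicate 2 and at 28.9% in replicate 3. The deposited intervals for Slamf7-201 were 2.59 to 9.08 TPM in replicate 1, up to 1.52 TPM in replicate 2 and 1.46 to 8.92 TPM in replicate 3, so those of replicates 2 and 3 overlap. These shares rest on 533, 437 and 518 estimated counts for the whole gene. Transcripts with the motif made up 68.8, 69.8 and 78.8% of the Slamf7 TPM. Of the remaining genes, Cd48-202 held 99.2 ± 0.130% of Cd48, Slamf8-201 96.7 ± 5.77% of Slamf8, and Slamf9 has 1 transcript.

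**Figure D3:**
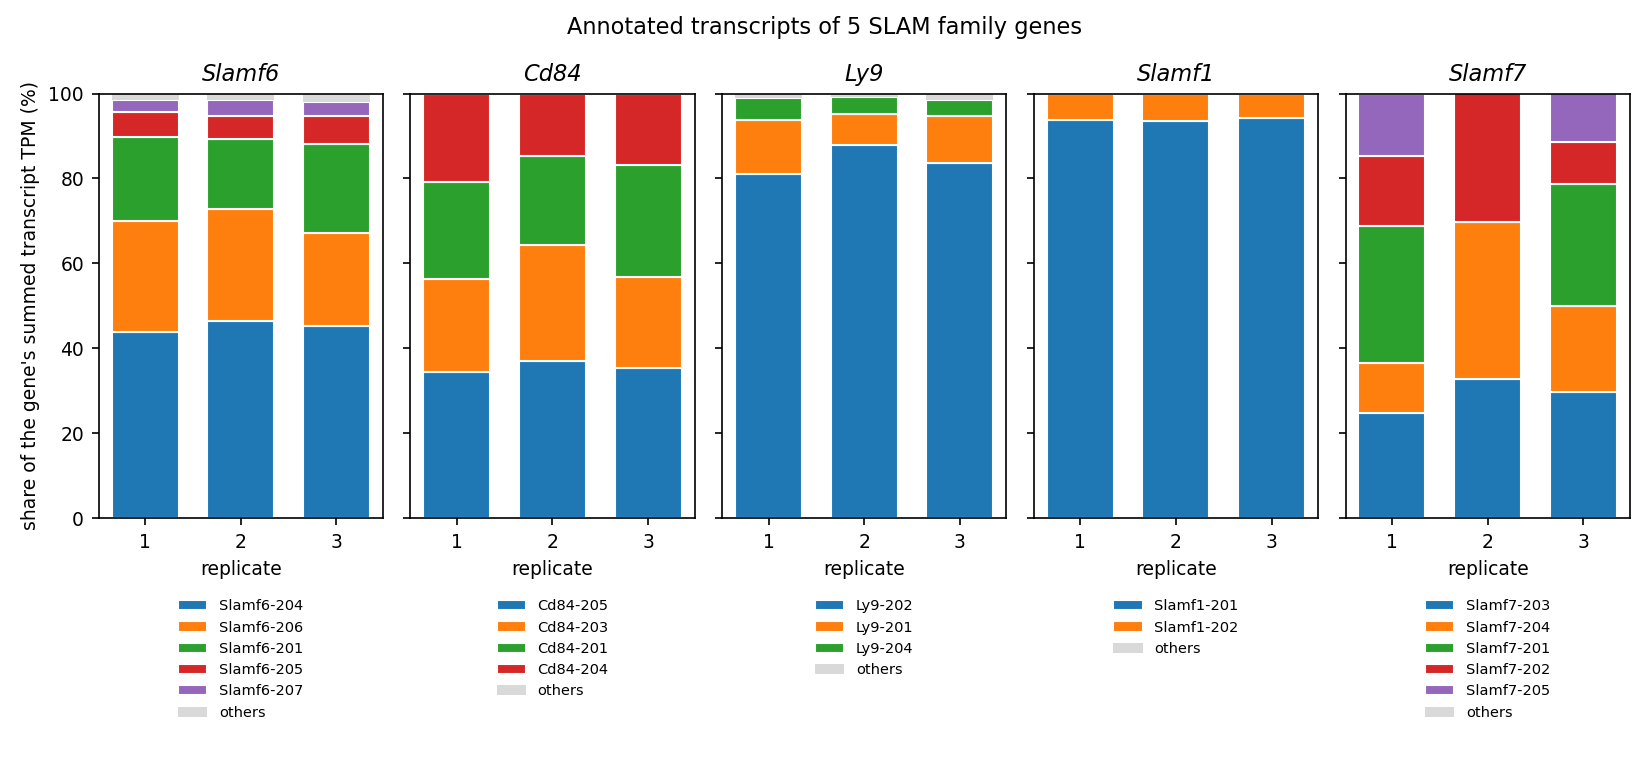
Share of each annotated transcript in its gene's summed TPM, as stacked bars for replicates 1, 2 and 3; transcripts with a mean share under 3% are in grey. Slamf1 and Ly9 rest on 1 transcript, Slamf6-204 leads Slamf6 and Cd84-205 leads Cd84 in every library, and the Slamf7 bars differ most between libraries.

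Genes annotated over the members took few reads. Gm37065, an antisense gene at Slamf6, had 0.479% as many estimated counts as Slamf6. The antisense gene Gm37787 at Slamf7 had 1.37%, Cd244a, which overlaps Ly9 on the opposite strand, 0.347%, and Gm37010, within Cd48 on the same strand, 0.941%. The strand setting of the counting is not stated, so the split of reads within each pair is uncertain.

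The 3 libraries were next compared with one another, to ask whether the members differ by more than counting noise. Of 7 members tested 5 differed, in Pearson's chi-square test of homogeneity over all genes with Benjamini-Hochberg adjustment. The background is high: 44.9% of all tested genes differed. Among genes whose mean count reached 1000, as it did in the 5 highest members, the share was 66.5%, and 4 of these 5 members differed. The members' count thus lies near the share among genes of many counts.

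Slamf6 had 451, 409 and 470.3 CPM in replicates 1, 2 and 3, a ratio of 1.15 between the highest and the lowest (chi-square test, adjusted p = 6.05e-19). Slamf7 was at 25.7, 20.6 and 28.0 CPM, a ratio of 1.36 (adjusted p = 4.45e-05). Both were lowest in replicate 2. All 5 T cell markers were lowest in replicate 2 by CPM too, and the summed myeloid and dendritic markers were at 46.1, 31.9 and 48.7 TPM in replicates 1, 2 and 3. The part of these markers in the Slamf6 and Slamf7 values was not tested.

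Cd48 and Slamf1 went the other way and were highest in replicate 2. Cd48 had 305, 336 and 300.0 CPM in replicates 1, 2 and 3, a ratio of 1.12 (chi-square test, adjusted p = 9.24e-11). Slamf1 had 125, 150.4 and 129.8 CPM, a ratio of 1.20 (adjusted p = 9.54e-12). The 5 erythroid markers reported here were highest in replicate 2, with sums of 908.6, 1270.1 and 1146 TPM in replicates 1, 2 and 3. All 5 regulatory T cell markers were lowest by CPM in replicate 3, where Cd48 was lowest too. Foxp3, Il2ra and Ikzf2 were highest in replicate 2, and Ctla4 and Tnfrsf18 in replicate 1. Il2ra, which codes for the interleukin-2 receptor alpha chain, had the widest ratio of the 5. It was at 799, 845 and 652 CPM in replicates 1, 2 and 3. The part of these markers in the Cd48 and Slamf1 values was not tested. The opposite directions of Slamf6 and Slamf7 and of Cd48 and Slamf1 were the same under library totals, TMM and DESeq2 scaling. In the second table Cd48 was highest in replicate 3, and neither Cd48 (adjusted p = 0.545) nor Slamf1 (adjusted p = 0.101) was called.

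Cd84 was at 188, 189.6 and 207 CPM, a ratio of 1.10 with replicate 3 highest (chi-square test, adjusted p = 1.54e-04). Ly9, at 223, 230.0 and 233 CPM, had a ratio of 1.04 and was not called (adjusted p = 0.200). With TMM library sizes it was, at an adjusted p of 0.0451. Slamf8 was not called either (adjusted p = 0.976), and Slamf9 was not tested at the minimum of 30 summed counts used here. For scale, the median ratio between the highest and lowest library was 1.11 over the 4457 genes whose mean count reached 1000.

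Most of these calls were lost without replicate 2. In the other libraries, 2 of 6 members tested differed, against 27.7% of all genes tested. Those were Slamf6 (adjusted p = 0.0196) and Cd84 (adjusted p = 3.77e-04). Without replicate 1, 5 of 6 differed against 30.3% of genes, and without replicate 3, 4 of 6 against 34.0%, the call of Cd84 being lost (adjusted p = 0.861). In the second gene table, 3 of 6 differed, Slamf6, Slamf7 and Cd84, against 23.2% of its genes.

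**Figure D4:**
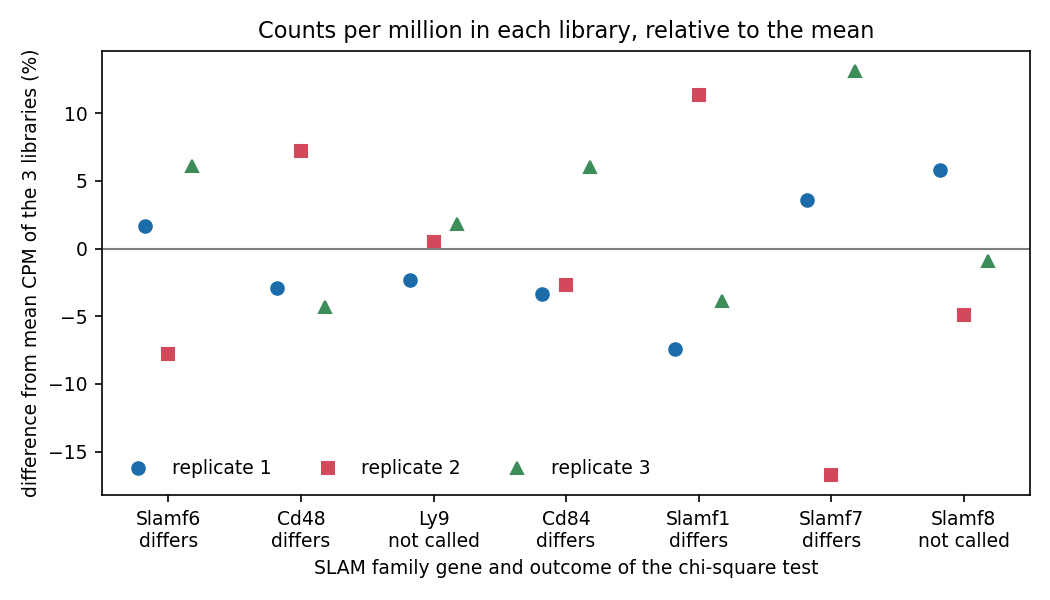
CPM of the 7 members tested, as percent difference from the mean of the 3 libraries, with the outcome of the chi-square test under each name. Replicate 2 is the lowest library for Slamf6 and Slamf7 and the highest for Cd48 and Slamf1, which for Cd48 does not hold in the second gene table.

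The other genes of the pathway were taken from a list by role, and 18 of 21 were detected, against 47.4% of protein-coding genes. Among receptors outside the members, Cd2, the adhesion receptor that binds CD48, was at 1249, 1162 and 1184 TPM in replicates 1, 2 and 3 (1198 ± 45.0 TPM). Cd244a, the other receptor for CD48, was at 0.710, 0.290 and 0.960 TPM. Of the known pair of CD48 receptors, 1 was therefore abundant and 1 under 1 TPM in every library.

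Of the adaptors, Sh2d1a, which codes for SAP, was at 318, 267 and 309 TPM (298 ± 27.4 TPM). Sh2d1b1 and Sh2d1b2, which code for the EAT-2 adaptors known from natural killer and myeloid cells, stayed at or below 0.100 and 0.360 TPM in every library. Sh2d1b1 and Sh2d1b2 are similar neighbours, so their separate values are uncertain.

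All 4 kinases were detected. Fyn, which SAP recruits, was at 62.3, 41.2 and 50.3 TPM (51.2 ± 10.6 TPM), with replicate 2 lowest. Lck, the kinase that phosphorylates the T cell receptor chains, was at 1529, 1356 and 1589 TPM. Csk, which restrains both kinases, was at 152, 188 and 167 TPM, and Prkcq, the protein kinase C of the T cell synapse, at 167, 142 and 143 TPM.

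All 4 phosphatases were detected as well. Ptpn6, which codes for SHP-1, was at 310, 305 and 362 TPM (326 ± 31.9 TPM). Inpp5d, the lipid phosphatase SHIP-1, was at 195, 193 and 199.9 TPM, while Ptpn11, which codes for SHP-2, was lower, at 16.7, 14.1 and 14.3 TPM. Ptpn22, which acts on Src-family kinases, was at 301, 250.3 and 325 TPM.

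All 8 other signalling genes were detected. Pik3cd, the catalytic subunit of phosphoinositide 3-kinase delta, was the highest, at 315 ± 14.9 TPM. The exchange factor Vav1 was at 199 ± 10.7 TPM. Pik3r1, Bcl10 and Nck1 lay between 84.7 and 89.9 TPM, followed by the adaptor Dok1 at 49.7 ± 3.15, the Ras inhibitor Rasa1 at 32.4 ± 2.92 and the adaptor Grb2 at 9.60 ± 1.81 TPM. The median of the 21 signalling genes' mean levels was 89.9 TPM. Of 19 tested, 16 differed between libraries, and 10 of the 19 were lowest in replicate 2, as were 35.3% of all genes tested. This count too stands beside the 44.9% of all genes and the 66.5% of those with many counts.

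**Figure D5:**
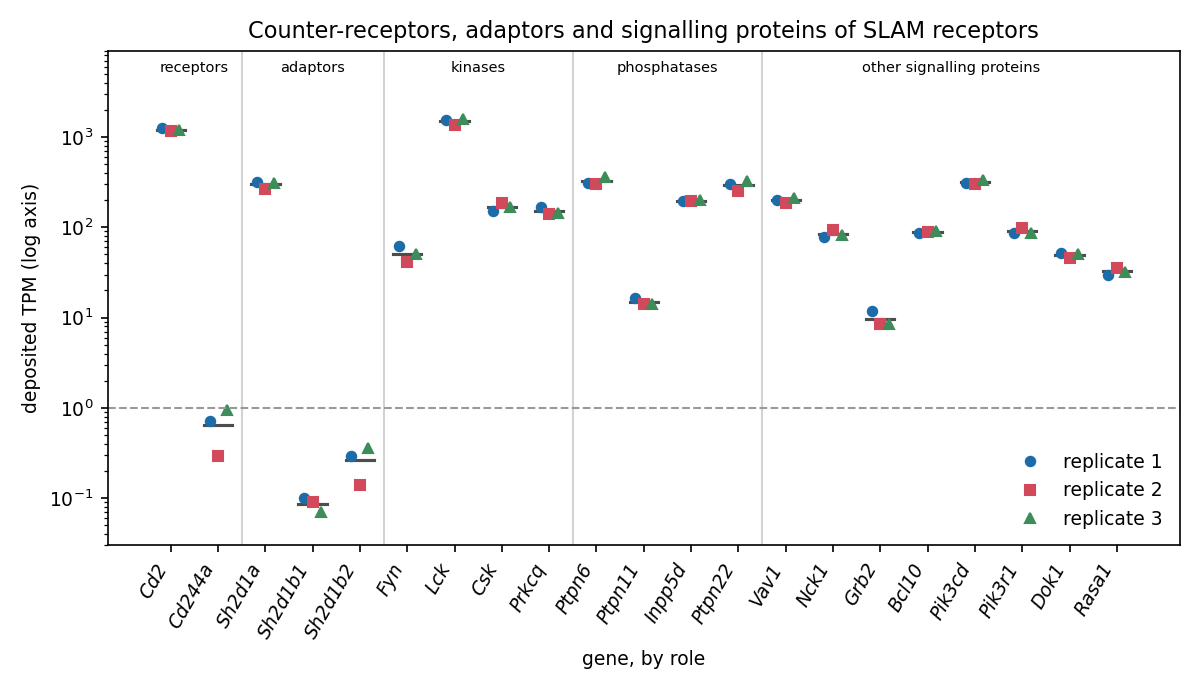
Deposited TPM of 21 genes that act with SLAM receptors, by role, on a log axis with 1 symbol per library and a bar at the mean; the dashed line marks 1 TPM. Sh2d1a stands at 298 TPM on average, and Cd244a, Sh2d1b1 and Sh2d1b2 lie below the line in every library.

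SLAM receptors are also made by other blood cells, so marker genes of those cells were read in the same libraries. The 8 B cell markers summed to between 63.3 and 72.8 TPM, with 5 detected. Cd79b led them at 38.2, 39.9 and 38.2 TPM, and Pax5, which defines the lineage, was at 0.360, 0.630 and 0.800 TPM. The posterior mean TPM of Pax5 was higher, at 2.53, 2.45 and 2.86, and its deposited interval lay above the TPM in every library. Its estimated counts were 38, 20 and 21, so the order of the libraries for Pax5 is uncertain. Of 6 plasma cell markers 3 were detected, at sums of 73.4 to 97.3 TPM, with Xbp1 highest and Tnfrsf17 listed at 0 in every library. Xbp1, at 64.8, 46.8 and 38.4 TPM, and Prdm1, at 29.9, 27.2 and 31.6 TPM, held most of that sum. Jchain was at 1.69, 4.56 and 2.46 TPM, Igha at 0.46, 1.17 and 0.87 TPM and Sdc1 at 0.49, 0.40 and 0.15 TPM. The 11 markers of myeloid and dendritic cells, in which Slamf8 and Slamf9 are known, summed to between 31.9 and 48.7 TPM, with 6 detected. Lyz2 was highest there at 15.7, 12.8 and 16.7 TPM, 5 of the 11 had a mean under 1 TPM, and S100a8 was at 0.

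The 6 natural killer cell markers summed to between 4.26 and 5.58 TPM, with 2 detected. Those 2 were Klrb1c, at 2.00, 3.05 and 1.90 TPM, and Klrd1, at 1.95, 1.21 and 3.54 TPM. Ncr1, which defines those cells, was listed at 0 in 2 libraries and at 0.110 TPM in replicate 1. The 2 CD8 T cell markers summed to between 18.5 and 24.3 TPM, with 1 detected. Cd8b1 was at 17.7, 21.7 and 22.5 TPM, and Cd8a, which defines the lineage, at 0.790, 2.56 and 1.03 TPM. The 5 erythroid markers reported here were all detected, the globin Hbb-bs highest among them in replicate 2 and Alas2, which codes for an enzyme of heme synthesis, lowest at 4.54, 9.15 and 6.72 TPM. Slamf7, at 14.0 to 22.1 TPM, and Slamf8, at 0.50 to 0.56 TPM, were below the summed myeloid and dendritic markers in every library. Slamf6, Cd48, Ly9, Cd84 and Slamf1 were above that sum. Slamf7 was also below the summed B cell and the summed plasma cell markers in every library. Slamf1 was below the plasma cell sum in replicate 1 and above it in replicates 2 and 3. Such sums depend on how many genes are listed and set no limit on RNA from those cells. The summed erythroid markers were above every member in every library. What share of any member's RNA came from cells other than regulatory T cells was not tested.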

How the data were processed

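Polyadenylated RNA of 3 libraries of 1 biosample was measured, and all 3 form 1 group. The authors deposited a gene table and a transcript table for each, on mm10 with GENCODE M21 annotation and with RSEM's column names, per the file headers and file lists. No source used here names the aligner, the version of the quantifier or the strand setting. Estimated counts (expected counts) in the deposited tables divide reads that match several features. Deposited beside them are TPM and FPKM values, the bounds of a posterior TPM signal and, for transcripts, the percent of the gene's TPM. The authors also deposited a second gene table, with whole-number counts on GENCODE M4 for 22457 genes.

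Of 81881 rows in the gene table, 55536 name a gene, and 55450 genes have a GENCODE M21 symbol. The 26248 numbered rows with no gene and the 97 spike-in and phiX rows entered no total or test. PhiX took 0.224, 0.262 and 0.182% of counts in replicates 1, 2 and 3, and the other rows that name no gene at most 0.00868%. At depths of 20783676, 21206219 and 18496690 estimated counts, a gene with no read could still have up to 3 counts, which is 0.144, 0.141 and 0.162 CPM. Intervals and such floors describe counting error alone, because reads carry no molecular identifiers.

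Levels are mean deposited TPM ± SD (n = 3), and a gene was called detected at 1 TPM in all 3 libraries. Libraries were compared by Pearson's chi-square test of homogeneity, with 2 degrees of freedom, on rounded estimated counts in proportion to library totals. It covered 14641 genes with 30 or more counts in sum, Benjamini-Hochberg adjusted over all of them at 0.05. The test was first tried on simulated counts with known changes. Coding sequences came from GENCODE M21 transcripts and were translated with Biopython. A planned comparison of RefSeq proteins was not made, so no identity between members is given.

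The genes named are all 8 members, all 21 genes of the signalling lists, and from each marker list its highest gene, its lowest or its defining marker. One erythroid marker of the planned list is not reported here and enters no count or sum. Transcripts are named at a mean share of 10% or more. Further transcripts, the 6 other genes with paired motifs, and Gm10521, Prdm1, Jchain, Igha, Sdc1 and Klrd1 were named after their values were seen. So were Il2ra, Ikzf2 and Ctla4. The members and lists were chosen with earlier results of these data known. Alternatives were other TPM limits, FPKM, TMM and DESeq2 scaling, count filters, a deviance statistic, the second table, estimated counts in place of TPM, and leaving out each library. Software was R 4.3.3, edgeR 4.0.16 and DESeq2 1.42.0 for scaling, and Python 3.11.15 with Biopython 1.88, scipy 1.17.1, pandas 2.3.3, numpy 2.4.6 and matplotlib 3.10.9.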

Additional observations from a re-analysis of the deposited data

How the results depend on the processing

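The number of members detected was 6 in every setting tried except a limit of 0.5 TPM, where it was 7. The number that differ between libraries was 5 in the main setting, 6 with TMM library sizes and 3 in the second gene table, and it ran from 2 to 5 when 1 library was left out. The second table and any pair of libraries hold fewer counts than the main setting. The number was 5 without replicate 1 and 2 without replicate 2, and the cause of these differences was not tested. The number of signalling genes detected was 18 throughout, and the number that differ ran from 11 to 16. No paired analysis was possible because there is 1 group, so no replicate number is shared between groups.

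Cd48's share, 31.9% by TPM, was 23.4% by estimated counts and 16.9% in the second gene table. In 2 alternatives added after seeing the data it was 49.0% with the longest protein-coding transcript as length and 41.2% with the transcript of most counts. By transcript estimated counts the transcripts leading by mean TPM held 90.4% of Slamf1, 33.7% of Slamf6, 56.0% of Slamf7, 99.3% of Cd48 and 47.5% of Cd84, against 93.9, 45.2, 29.1, 99.2 and 35.6% by TPM, since TPM divides by length. With posterior mean TPM, also added after seeing the data, Slamf8 moved to 88.6% and Cd48 to 99.0%, and the others moved by less than their SD. Depth limits Slamf8 and Slamf9, which rest on 33 and 11 counts in all.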

Other observations

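The stretch between Slamf6 and Slamf9 holds genes of other functions, and several were as abundant as the receptors. Copa, a subunit of the coat of Golgi transport vesicles, was at 251, 224 and 268 TPM in replicates 1, 2 and 3. Ncstn, which codes for the gamma-secretase subunit nicastrin, was at 124, 128 and 131 TPM, and Dcaf8 at 140.0, 134.8 and 149.5 TPM. Tagln2, an actin-binding protein gene that lies between Slamf9 and Slamf8 with other genes on both sides, was at 350.3, 306 and 348 TPM, while Slamf9 and Slamf8 were under 1 TPM in every library. Nhlh1, Atp1a4 and Vsig8 in the same interval were listed at 0 in all 3 libraries. These genes were named after their values were seen.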
